A study of Mus musculus with 12 samples.

Results

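The genes described here encode the protein subunits of oxidative phosphorylation, the 4 electron transport complexes (I to IV) and the ATP synthase (complex V). They were chosen by symbol alone, with no measured value: symbols starting with Ndufa, Ndufb, Ndufc, Ndufs, Ndufv, Uqcr, Cox4 to Cox8 or Atp5, the genes Sdha, Sdhb, Sdhc, Sdhd and Cyc1, and every symbol starting with mt-, without assembly factors and pseudogenes. The rule found 99 of the 22416 genes in the count table. Of these, 86 lie in the nuclear genome (38 of complex I, 4 of complex II, 9 of complex III, 18 of complex IV and 17 of complex V) and 13 in the mitochondrial genome (7 of complex I, 1 of complex III, 3 of complex IV and 2 of complex V). Ndufa4, listed under complex I by its symbol, is now assigned to complex IV.

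Mouse embryonic stem cells were profiled by RNA-seq in 4 groups of 3 libraries, as part of a study of how phosphorylation of eIF2α affects naive pluripotency. The WT groups carried eIF2α+/+, and the KI groups were homozygous for the A allele (eIF2αA/A), whose eIF2α cannot be phosphorylated at the regulatory serine. Cells of each genotype were kept for 6 days in serum-free medium with knockout serum replacement and either leukaemia inhibitory factor alone (LIF) or, in LIF/2i, that factor with the MEK inhibitor PD0325901 and the GSK3 inhibitor CHIR99021. RNA was taken from a cleared lysate made with cycloheximide, depleted of ribosomal RNA and fragmented. How many clones stand behind the KI cells is not given in the sources used here, and no label ties replicates to separate cultures. P-values therefore cover the spread among these libraries alone, and that spread could be technical.

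Oxidative phosphorylation moves electrons from NADH (through complex I) and succinate (through complex II) to complex III, cytochrome c and complex IV, which reduces oxygen. Complexes I, III and IV pump protons out of the mitochondrial matrix, and complex V uses the returning protons to make ATP. Complex II is built from nuclear genes alone, while the other complexes join nuclear and mitochondrially encoded subunits, so their parts come from separate genomes with separate transcription. Naive stem cells in LIF/2i are known to use respiration together with glycolysis, and the primed state relies more on glycolysis.

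The libraries held 2307219 to 9713857 counts, so that 3 counts equalled between 0.309 and 1.3 CPM (counts scaled to a common total). The counts of WT LIF replicates 1 and 3 lay within sampling noise of each other (chi-square per degree of freedom 0.858, against 2.61 to 40.2 in the other pairs of a group) and were counted as 1 sample by their mean, which left n = 2 in WT LIF, n = 3 in each other group and 11 samples in all. The summed level of 6 pluripotency markers was 1912 to 2888 CPM, with none at 0. Summed fibroblast markers (6 genes, 1 to 3 of them at 0) were 2.13 to 4.87 CPM in WT LIF/2i, 7.31 to 17.0 in KI LIF/2i, 84.8 to 126 in KI LIF and 23.2 to 385 in WT LIF. Summed Y-linked genes gave 36.7 and 41.6 CPM in the replicate 1 libraries of KI cells and 1.43 to 3.90 CPM in KI replicates 2 and 3. In WT cells they gave 44.8 (LIF/2i) and 77.6 CPM (LIF) in replicate 2, and 156 to 261 CPM in replicates 1 and 3. The part of these differences in the results below was not tested. In bulk RNA, fewer cells of a type and less RNA per cell cannot be told apart.

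Levels differed widely between subunits and followed how much of a coding sequence is also present elsewhere in the annotated transcripts. Nuclear copies of mitochondrial DNA and processed pseudogenes repeat the sequence of many of these genes, and how the authors treated reads with several matches is not given in the sources used here. For each member, the share of its 30-base words found in a transcript of another gene was counted in GENCODE release M21 (GRCm38). mt-Atp8 and mt-Atp6, adjacent subunit genes of complex V whose reading frames overlap on 1 shared RNA, show the contrast and are printed for that reason (first 201 coding bases, 5′ to 3′, plus strand of GRCm38). The capitals mark bases that lie in a 30-base word of another gene.
mt-Atp8, chrM:7766-7966: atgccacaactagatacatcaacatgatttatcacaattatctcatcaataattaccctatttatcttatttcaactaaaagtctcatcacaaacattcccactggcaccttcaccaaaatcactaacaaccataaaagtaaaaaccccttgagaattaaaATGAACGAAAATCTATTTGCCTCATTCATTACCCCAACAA
mt-Atp6, chrM:7927-8127: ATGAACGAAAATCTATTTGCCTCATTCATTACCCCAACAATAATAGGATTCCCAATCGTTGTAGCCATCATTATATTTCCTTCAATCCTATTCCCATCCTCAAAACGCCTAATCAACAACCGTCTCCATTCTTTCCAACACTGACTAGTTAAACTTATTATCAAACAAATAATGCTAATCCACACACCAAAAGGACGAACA
In mt-Atp8 the 40 capital bases at the end are its overlap with mt-Atp6, whereas all 201 printed bases of mt-Atp6 are in capitals. The whole mt-Atp6 coding sequence is repeated in the nuclear copy Gm10925. The mean level over the 11 samples was 5371 CPM per kb of coding sequence for mt-Atp8 and 210 CPM per kb for mt-Atp6. The ratio of mt-Atp6 to mt-Atp8 in CPM stayed between 0.0619 and 0.171 in the 11 samples.

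Over the 13 mitochondrially encoded genes, levels split at 90% shared words. Over 90% of words were shared by mt-Co2, mt-Co3, mt-Atp6, mt-Nd3 and mt-Nd4l, whose levels were 46.1 (mt-Nd3) to 210 CPM per kb (mt-Atp6). The remaining 8 lay between 310 (mt-Nd6) and 6541 CPM per kb (mt-Nd1), with no overlap between these sets. Within the 8, levels did not follow the shared percentage throughout. mt-Nd4 (62.8% shared) and mt-Co1 (64.8%) stood at 1333 and 896 CPM per kb, above mt-Nd6 (8.42%). mt-Nd6 is encoded on the minus strand, opposite to the other 12, and reads from the 2 strands cannot be told apart where the counting of strand is not stated. Across the 13 genes, Spearman's rho between the level per kb and the shared percentage was -0.856. Across the 82 nuclear members tested it was -0.513. Genes share libraries and base composition, so both values are descriptions.

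Among nuclear members tested, the median level was 182 CPM per kb in the 41 with under 10% shared words, 113 in the 33 with 10 to 90% and 40.9 in the 8 with over 90%. The highest were Atp5b and Atp5a1, the catalytic β and the α subunit of ATP synthase, at 1191 and 1046 CPM per kb, followed by Cox4i1, a regulatory subunit of complex IV, at 923. Ndufs3, a core subunit of complex I, stood at 8.59 CPM per kb with 67.0% of its words shared, against 106 for Ndufs1 (9.06% shared), a core subunit of the same complex. Single genes departed from this order: Cox5a stood at 429 CPM per kb with 40.6% shared, and Ndufv3 at 53.3 with none shared. Atp5g1, Atp5g2 and Atp5g3 encode the same mature c subunit of the proton-turning ring, and were listed at 51.9, 2.37 and 772 CPM per kb. Both low members share 100% of their words with other genes, and Atp5g3 shares none. By complex, the median over the tested nuclear members was 144 CPM per kb for complex I, 185 for II, 182 for III, 151 for IV and 113 for V. Levels of members with many shared words are therefore uncertain. Their comparison between groups uses the same sequence in every library, but whether reads from the copies differ between groups was not tested.

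**Figure D1:**
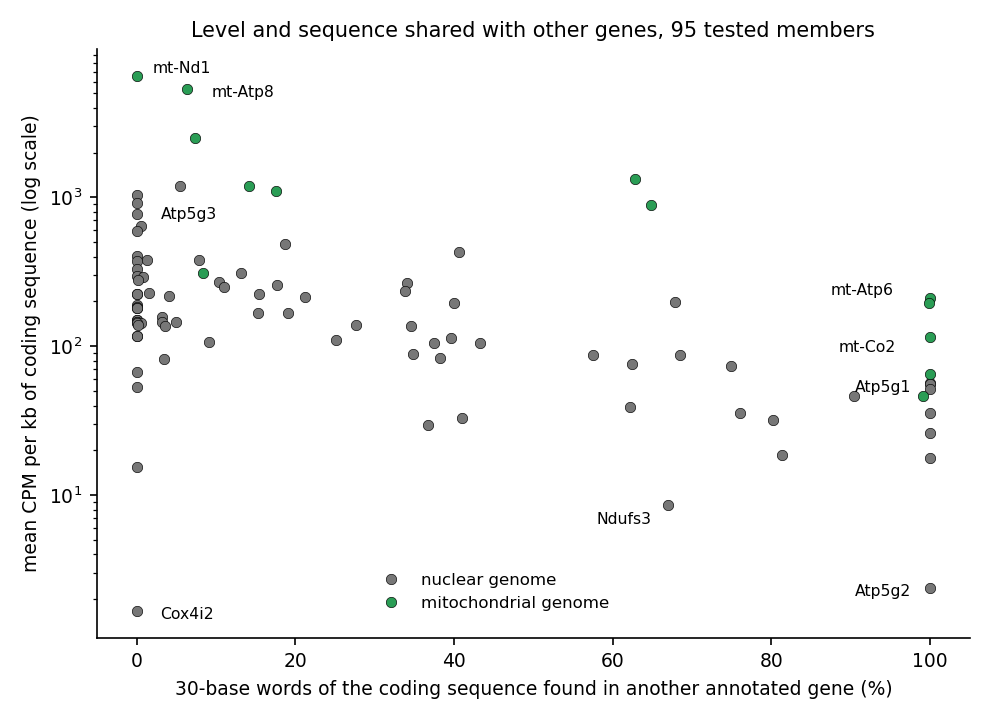
Mean CPM per kb of coding sequence (log axis) against the percentage of 30-base coding words found in another annotated gene, 1 point for each of the 95 tested members, with nuclear genes in grey and mitochondrially encoded genes in green. The 5 green points at the right are the mitochondrially encoded genes over 90%, at 46.1 to 210 CPM per kb, below the other 8.

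Subunits with tissue-bound isoforms were present mostly in their general form. Cox8b, the form of heart and skeletal muscle, had no count in any of the 12 libraries, and Cox6a2, also of striated muscle, had counts in 2 libraries and a mean of 0.0153 CPM. Cox4i2, the form raised by low oxygen, lay between 0.168 and 2.74 CPM, or 1.66 CPM per kb, against 923 CPM per kb for Cox4i1. The exceptions were Cox7a1, the muscle form of subunit VIIa, at 67.2 CPM per kb against 311 for the general form Cox7a2, and Cox6b2, the form of testis, at 151 against 381 for Cox6b1. Summed striated muscle markers (5 genes) were 5.85 to 15.5 CPM over the samples. The 4 members Cox8b, Cox6a2, Cox8c and Ndufa4l2, fell under the minimum count and were not tested, which left 95.

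The 13 mitochondrially encoded genes together took 1.13 to 2.70% of a library's counts and the 86 nuclear members 1.01 to 1.24%. The mitochondrial share was 1.44, 1.75 and 1.17% in WT LIF/2i replicates 1 to 3 and 2.29, 1.96 and 2.34% in WT LIF. It was 1.64, 1.13 and 2.70% in KI LIF/2i and 1.85, 1.43 and 1.48% in KI LIF. The lowest and the highest library thus belonged to 1 group, KI LIF/2i, while the WT LIF libraries lay above every WT LIF/2i library. The ratio of summed mitochondrial to summed nuclear CPM averaged 1.35 ± 0.201 in LIF/2i (SD, n = 3) and 1.93 ± 0.214 in LIF (SD, n = 2) for WT cells, and 1.58 ± 0.762 in LIF/2i and 1.39 ± 0.187 in LIF (SD, n = 3 each) for KI cells.

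**Figure D2:**
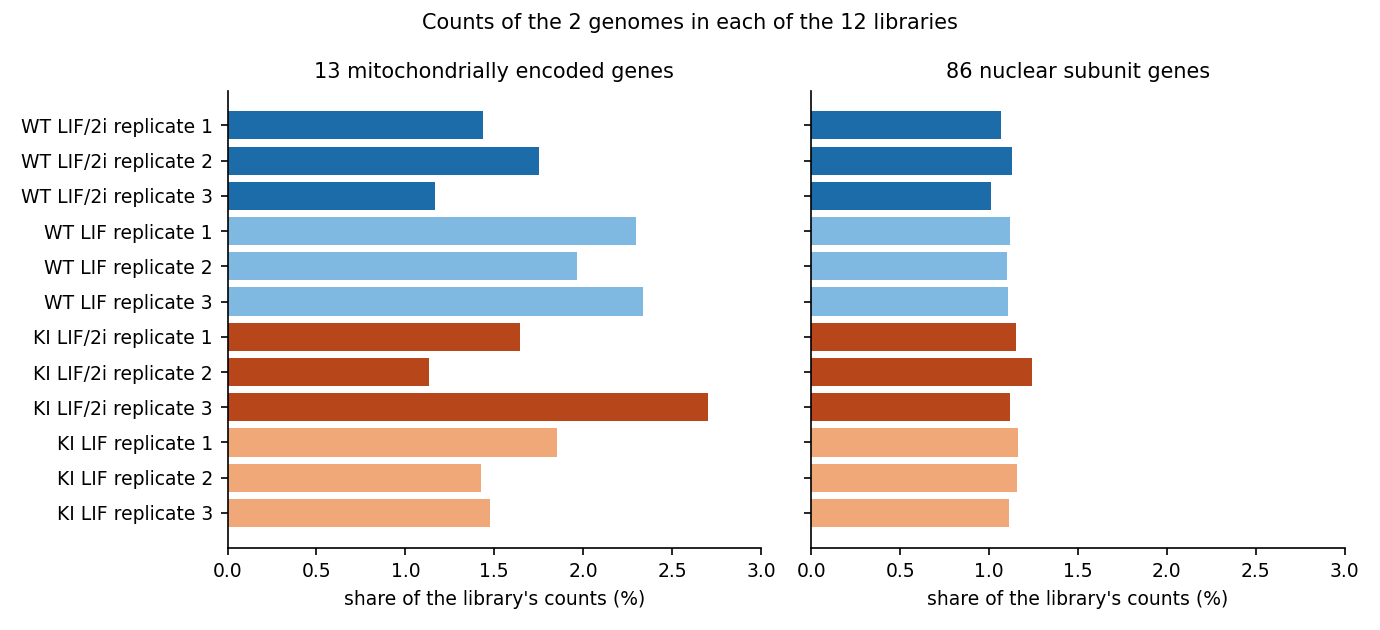
Share of each library's counts, in percent, taken by the 13 mitochondrially encoded genes (left) and by the 86 nuclear members (right), 1 bar for each of the 12 libraries, coloured by group. The left bars run from 1.13% (KI LIF/2i replicate 2) to 2.70% (KI LIF/2i replicate 3), the right bars only from 1.01 to 1.24%.

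The 5 copied genes did not follow the other 8 in every sample. Their summed CPM was 0.0104 of that of the other 8 in the mean of WT LIF replicates 1 and 3, and between 0.0204 and 0.0304 of it in the other 10 samples, WT LIF replicate 2 included (0.0291). mt-Co2, a copper-binding core subunit of complex IV, was at 28.1 CPM in that pair and at 107 CPM in WT LIF replicate 2. mt-Nd2, a proton-pumping subunit of complex I with 14.1% shared words, had 2038 and 1261 CPM in the same samples, the opposite order. The corresponding ratio of nuclear members over 90% shared to those under 10% did not set the pair apart, at 0.00930 against 0.00813 to 0.0103 in the other samples.

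**Figure D3:**
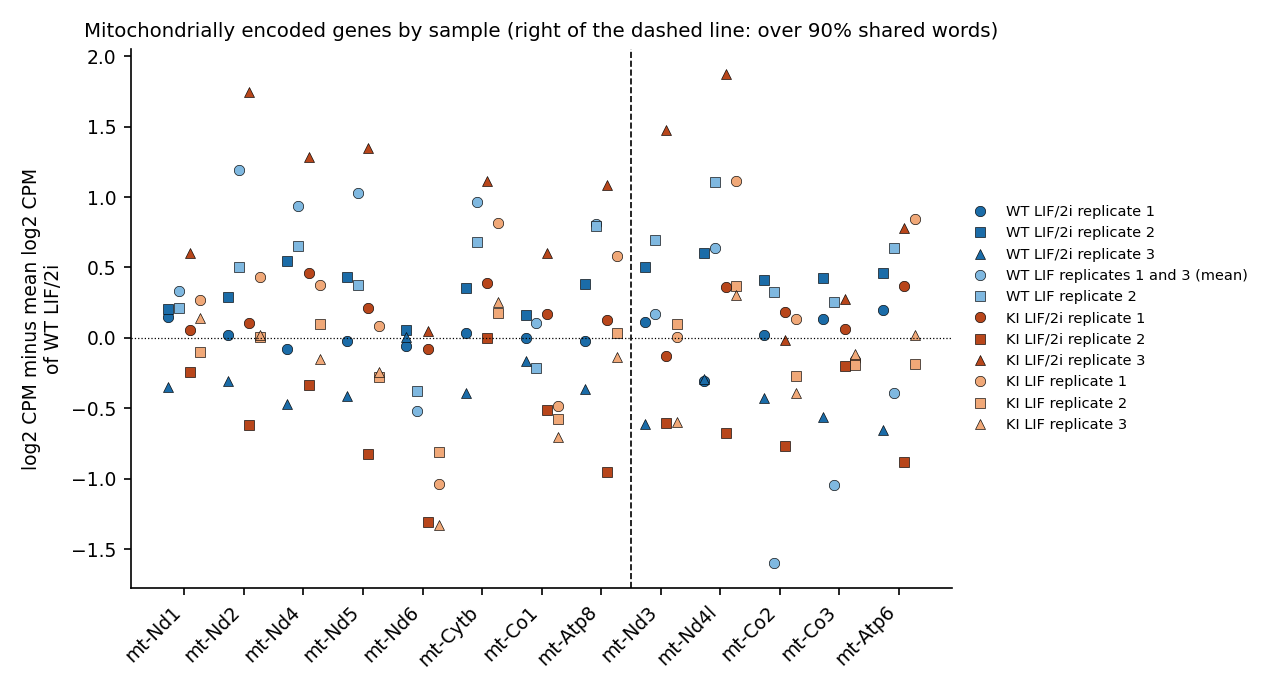
Level of each of the 13 mitochondrially encoded genes in the 11 samples, as log2 CPM minus the mean log2 CPM of WT LIF/2i, coloured by group and shaped by replicate. KI LIF/2i replicate 3 (dark orange triangles) is above replicate 2 (squares) for all 13 genes, and the WT LIF pair (light blue circles) lies lowest for mt-Co2 (28.1 CPM) and mt-Co3.

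The first comparison asked how KI cells differed from WT cells in LIF/2i. Only Ndufv3 passed the test, and it was lower in KI. Ndufv3 (transcript ENSMUST00000046288, chromosome 17, 31520118 to 31531331, GRCm38) encodes an accessory subunit of the NADH-oxidising arm of complex I. It measured 103, 93.0 and 113 CPM in WT LIF/2i and 68.9, 63.6 and 54.1 CPM in KI LIF/2i, so the groups did not overlap. It fell by 0.73 ± 0.14 (SE) on the log2 scale (edgeR adjusted p = 0.0259). WT LIF (69.7 and 79.4 CPM) and KI LIF (63.4, 57.6 and 56.3 CPM) both lay below WT LIF/2i, and in LIF the KI difference was -0.34 ± 0.16 with an adjusted p of 0.484. The call did not survive the removal of replicate 1 (adjusted p = 0.0892) or replicate 3 (0.0709) of WT LIF/2i, nor of replicate 2 (0.0623) or replicate 3 (0.0815) of KI LIF/2i, each with a log2 change of -0.64 or lower.

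Of the 95 members, 0 were called higher where 0.974% of the 13239 genes tested were, and 1 was called lower where 1.25% were. At an unadjusted p under 0.05, 11 members were higher against 10.8% of all genes, and 1 was lower against 9.75%. The median log2 difference was 0.150 over nuclear members (0.055 to 0.243 with 1 library left out) and 0.023 over all genes. Above 0 lay 63 of the 82 nuclear members and 6903 of the 13239 genes tested. Over the 41 nuclear members under 10% shared the median was 0.089, with 27 above 0. By sample, the nuclear median relative to the WT LIF/2i mean was 0.178 in WT LIF/2i replicate 2, within the 0.119 to 0.199 of KI LIF/2i. All 9 nuclear subunits of complex III lay above 0, with a median of 0.249. The highest were Uqcrc2 (0.85 ± 0.25, adjusted p = 0.0929) and Uqcrh (0.74 ± 0.20, adjusted p = 0.0793), neither past the threshold. By sample the complex III medians overlapped, with 0.205 in WT LIF/2i replicate 2 and 0.170 in KI LIF/2i replicate 3. The medians of nuclear complexes I, IV and V were 0.150, 0.034 and 0.150. Of the 4 complex II subunits 3 lay below 0, with a median of -0.217. Their median was also below 0 for KI against WT in LIF (-0.087) and from LIF/2i to LIF in WT (-0.180) and KI cells (-0.128). The median of the 13 mitochondrially encoded genes was 0.281, and it was -0.210 without KI LIF/2i replicate 3, so its sign rested on that library.

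Uqcrh (ENSMUST00000078676, chromosome 4, 116066965 to 116075071, GRCm38), the hinge protein that links complex III to cytochrome c, had 18.3, 17.7 and 15.5 CPM in WT LIF/2i, 27.8 and 27.6 in WT LIF, 26.7, 23.2 and 36.6 in KI LIF/2i and 23.9, 23.6 and 21.2 in KI LIF. WT LIF/2i was thus the lowest group, below every other sample. Without KI replicate 1 in both media, an alternative chosen after seeing the data, Uqcrh was called higher in KI LIF/2i (0.77, adjusted p = 0.0467). In that setting 2 members were called higher (Uqcrh and Uqcrc2) and 4 lower (Ndufv3, Sdhb, Cox6b2 and Cox7a1), where 5.25% of all genes were called higher and 6.7% lower.

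KI replicate 1 differed from KI replicates 2 and 3 in both media for a few members. Uqcrc2, a core subunit of complex III, had 229 CPM in KI LIF/2i replicate 1 against 412 and 487 in replicates 2 and 3, and 260 against 383 and 367 in KI LIF. Cox6b2 had 59.6 CPM against 35.4 and 36.8 in LIF/2i, and 56.4 against 25.7 and 25.8 in LIF. With a margin of 0.5 on the log2 scale in both media, replicate 1 stood above the others for 5 of 95 members (Cox6b2, Ndufa4, Ndufa5, Uqcr11 and Atp5g2) and below for 1 (Uqcrc2), together 6.32% of members against 16.2% of all genes tested. This replicate difference ran with the Y-linked sums given above. The 6 were chosen after their values were seen.

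In LIF, no member passed the test between KI and WT cells. edgeR called 0.144% of all genes in either direction, DESeq2 1.72% and limma-voom 0.0831%, and each called 0 members. At an unadjusted p under 0.05, 4 of 95 members differed against 10.7% of all genes: Atp5c1, Cox5a and Sdhb with values below 0, and Ndufb2 above. The nuclear median was 0.030 (0.001 over all genes) and the median of the mitochondrially encoded genes -0.539, with 10 of 13 below 0. Of the 13239 genes tested, 6607 lay below 0. All 8 mitochondrially encoded genes under 90% shared lay below 0 (median -0.601), whereas 3 of the 5 over 90% lay above it (median 0.081). Those 3 were mt-Co2, mt-Co3 and mt-Atp6. mt-Co2 had 28.1 CPM in the WT LIF pair, 107 in WT LIF replicate 2 and 65.2 to 93.8 in KI LIF. mt-Co3 had 76.8, 189 and 139 to 146 CPM in the same order, and mt-Atp6 93.9, 192 and 108 to 221 CPM. The sign of mt-Co2 and mt-Co3 thus rested on the pair. mt-Nd5, a proton-pumping subunit of complex I, had 3371 and 2139 CPM in WT LIF and 1756, 1365 and 1396 in KI LIF, without overlap, and its difference of -0.87 ± 0.46 had an adjusted p of 0.537.

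**Figure D4:**
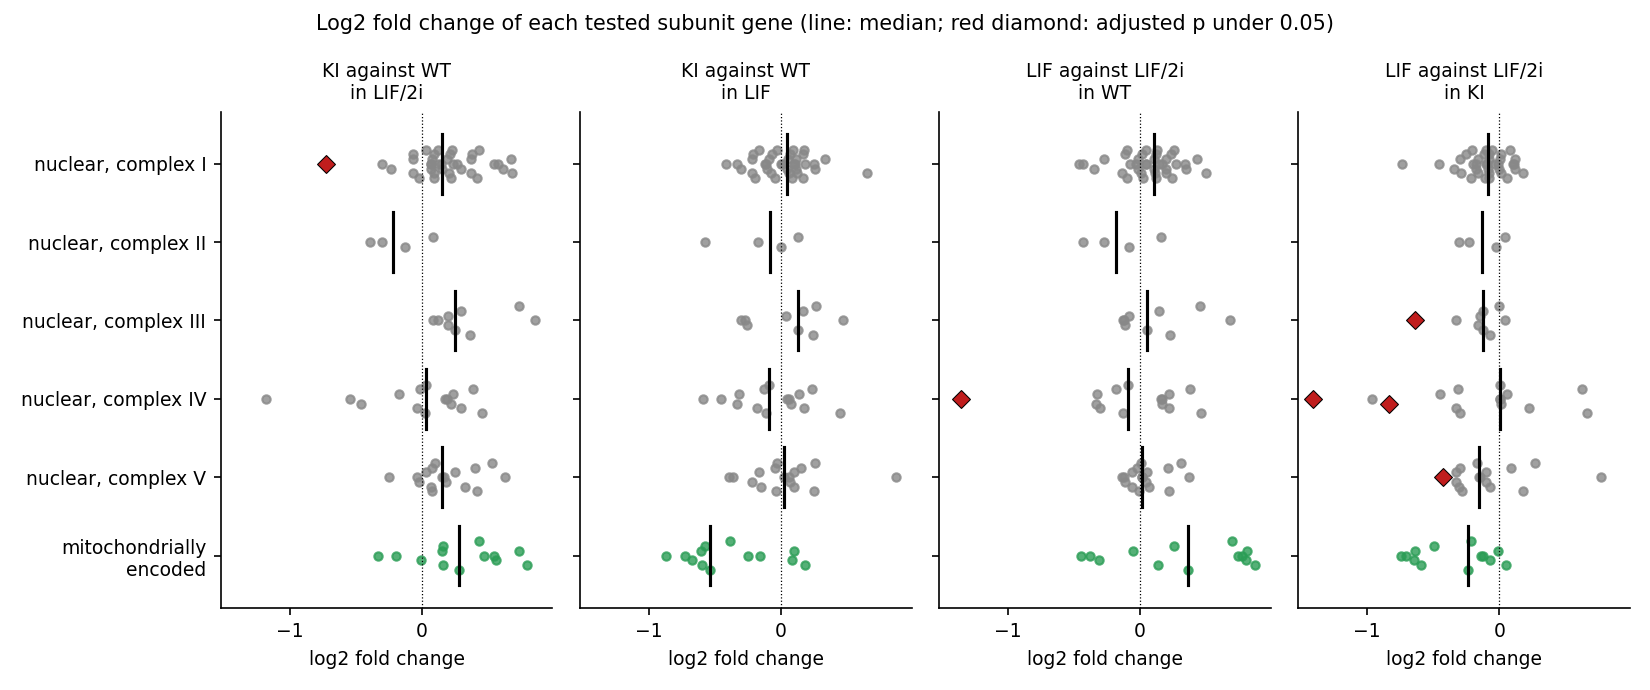
Log2 fold change of each tested member in the 4 comparisons of 2 groups, in rows by nuclear complex and for the mitochondrially encoded genes (green), with a black line at each median and a red diamond where the adjusted p was under 0.05. The mitochondrially encoded medians are 0.281, -0.539, 0.365 and -0.238 from left to right, and all 6 diamonds lie left of 0.

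The change of medium was then followed in each genotype. In WT cells, Cox7a1 fell from LIF/2i to LIF. Cox7a1 (ENSMUST00000208441, chromosome 7, 30184194 to 30186078, GRCm38) had 28.9, 33.3 and 27.4 CPM in WT LIF/2i and 10.1 and 13.2 CPM in WT LIF. It fell by 1.36 ± 0.38 (SE) on the log2 scale (adjusted p = 0.0352). In KI LIF/2i it had 33.1, 16.4 and 11.8 CPM, and in KI LIF 9.001, 7.09 and 7.19 CPM. KI LIF/2i replicate 1 lay within the WT LIF/2i range, replicate 2 between the WT media and replicate 3 within the WT LIF range. The fall in KI cells was -1.41 ± 0.36 (adjusted p = 0.0290), and without KI LIF/2i replicate 1 it was -0.87 (adjusted p = 0.0719). The WT call ended when replicate 1 (adjusted p = 0.0849) or replicate 2 (0.0915) of WT LIF/2i, replicate 2 of WT LIF (0.136), replicate 3 of KI LIF (0.0529) or the agreeing WT LIF pair (0.220) was left out. The KI call was also lost without KI LIF replicate 2 (0.120) or 3 (0.108), without KI replicate 1 in both media (0.0667), with limma-voom (0.093) and with only the groups compared fitted (0.0957).

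In WT cells 1 of 95 members was called lower against 6.69% of all genes, and 0 were called higher against 6.31%. At an unadjusted p under 0.05, 4 were higher (13.5% of all genes) and 6 lower (14% of all genes). Uqcrh (0.68 ± 0.22, adjusted p = 0.0646) and Cox4i1 (0.38 ± 0.13, adjusted p = 0.083) were nearest to the threshold above 0, and they passed it in 6 and 4 of 24 alternatives. The nuclear median was 0.044 and that of the mitochondrially encoded genes 0.365, against 0.008 over all genes. With 1 library left out they ranged from -0.049 to 0.122 and from 0.138 to 0.624, and the nuclear median was below 0 without WT LIF/2i replicate 3 (-0.049) or WT LIF replicate 2 (-0.003). Among the latter, mt-Cytb, the mitochondrially encoded core of complex III, had 2130, 2653 and 1588 CPM in WT LIF/2i and 4054 and 3337 CPM in WT LIF (0.80 ± 0.31, adjusted p = 0.110). mt-Nd6 had the opposite order, at 203, 219 and 212 CPM against 148 and 163 (-0.44 ± 0.31, adjusted p = 0.393). Over 24 alternatives, mt-Cytb passed the threshold in 3, mt-Nd2 in 2, and mt-Atp8 and mt-Nd6 in 1 each. With only the 8 genes under 90% shared the median was 0.717. All 3 mitochondrially encoded genes of complex IV lay below 0, at -0.38 (mt-Co2), -0.31 (mt-Co3) and -0.05 (mt-Co1). mt-Co2 and mt-Co3, both over 90% shared, were low in the WT LIF pair (28.1 and 76.8 CPM). In WT LIF replicate 2 they had 107 and 189 CPM, within the WT LIF/2i ranges of 63.55 to 113 and 108 to 213 CPM. Their sign thus rested on the pair.

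In KI cells 4 of 95 members were lower in LIF, against 5.01% of all genes, and 0 were higher, against 4.05%. At an unadjusted p under 0.05, 13 were lower (12.4% of all genes) and 1, Cox7c, was higher (11.3% of all genes). The nuclear median was -0.099 and the mitochondrially encoded median -0.238, against -0.026 over all genes. Without KI LIF/2i replicate 3 the mitochondrially encoded median was 0.201.

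The call with the smallest adjusted p was Cox5a (ENSMUST00000000090, chromosome 9, 57521279 to 57532426, GRCm38), a nuclear subunit of complex IV on the matrix side. It had 227, 235 and 246 CPM in KI LIF/2i and 137, 134 and 126 CPM in KI LIF, while the WT samples gave 190, 233 and 205 CPM (LIF/2i) and 171 and 162 CPM (LIF). The 3 KI LIF samples were the lowest of all 11. Cox5a fell by 0.84 ± 0.12 (SE) on the log2 scale in KI cells (adjusted p = 0.00149), and the call held in all 24 alternatives, with adjusted p-values up to 0.0133. In WT cells the difference was -0.33 ± 0.13 (adjusted p = 0.122). The difference between the genotypes in this change was -0.51 ± 0.17 with an adjusted p of 0.771, so the changes are not shown to differ. Of the 30-base words of Cox5a, 40.6% are shared, mainly with processed pseudogenes such as Gm11633.

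Uqcr10 and Atp5c1 were also lower in KI LIF. Uqcr10 (chromosome 11, 4701973 to 4704342, GRCm38), a small accessory subunit of complex III, had 39.6, 39.5 and 38.9 CPM in KI LIF/2i and 28.7, 22.3 and 24.97 CPM in KI LIF. It fell by 0.64 ± 0.18 (SE) on the log2 scale (adjusted p = 0.0439). Atp5c1 (chromosome 2, 10056030 to 10080510, GRCm38), the γ subunit that forms the rotor shaft of ATP synthase, had 110, 105 and 111 CPM in KI LIF/2i and 83.4, 81.4 and 78.3 CPM in KI LIF. It fell by 0.42 ± 0.11 (SE; adjusted p = 0.0385). WT samples of Atp5c1 lay between 97.3 and 109 CPM in both media. Both calls were close to the threshold: Uqcr10 stayed past it in 11 of 24 alternatives and Atp5c1 in 9 of 24, with adjusted p-values up to 0.182 and 0.149. Every setting without a KI LIF/2i replicate ended both calls, and so did those without KI LIF replicate 2 or 3, WT LIF/2i replicate 1, WT LIF replicate 2 or the agreeing WT LIF pair. Atp5c1 also lost its call without WT LIF/2i replicate 2 or KI LIF replicate 1.

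**Figure D5:**
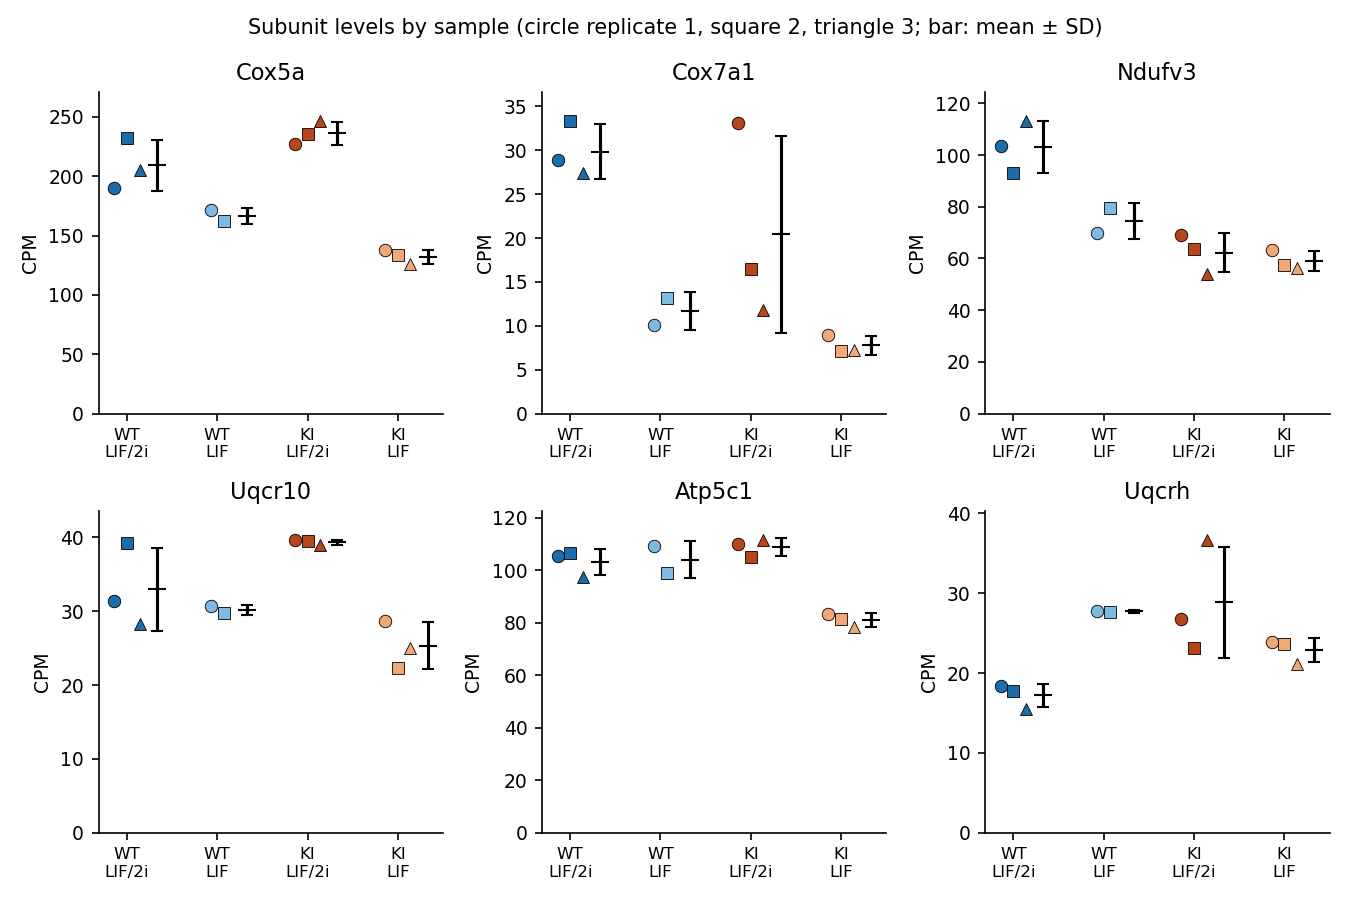
CPM of Cox5a, Cox7a1, Ndufv3, Uqcr10, Atp5c1 and Uqcrh in the 11 samples, with points shaped by replicate and a bar for the mean ± SD of each group (n = 2 in WT LIF, where the circle is the mean of replicates 1 and 3, and n = 3 elsewhere). Cox5a shows the KI LIF samples (126 to 137 CPM) below all others, and Cox7a1 shows KI LIF/2i replicate 1 (33.1 CPM) apart from replicates 2 and 3.

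No member passed the test of whether the genotype difference changed with the medium. edgeR and limma-voom called 0% of all genes and DESeq2 0.184%, with 0 members by each. At an unadjusted p under 0.05, 8 of 95 members had a lower KI to WT difference in LIF than in LIF/2i. A higher one was seen in 0 members. Of the 13239 genes tested, 439 were lower and 359 higher, together 6.03%. Below 0 lay 72 of the 95 members and 7089 of the 13239 genes. Uqcrh had the smallest p among the members (-1.01 ± 0.30, adjusted p = 0.708). The median was -0.888 over the mitochondrially encoded genes and -0.153 over nuclear members, against -0.033 over all genes. Without KI LIF/2i replicate 3 the first of these was -0.142. The nuclear median was -0.056 without WT LIF/2i replicate 3.

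Other genes of the pathway were read from lists of assembly factors, mitochondrial genome expression, nuclear regulators, and the electron carrier with the ATPase inhibitor. None of the 46 assembly factors passed in 3 of the 4 comparisons of 2 groups. In WT cells 1 was lower in LIF, against 6.69% of all genes: Cox15, which makes the heme A of complex IV. It had 86.9 ± 7.23 CPM (SD, n = 3) with the inhibitors and 53.8 ± 1.70 (SD, n = 2) without (-0.69 ± 0.19, adjusted p = 0.0318). That call was lost with library totals alone (adjusted p = 0.0583) and when replicate 1 (0.109) or 2 (0.0628) of WT LIF/2i, replicate 2 of WT LIF (0.161), replicate 3 of KI LIF (0.05) or the agreeing pair (0.177) was left out. For KI against WT in LIF/2i, 20 of 26 tested genes of mitochondrial genome expression lay above 0. Their median was 0.289, against 0.023 over all genes. At an unadjusted p under 0.05, 7 were higher and 0 lower, against 10.8 and 9.75% of all genes. Among the 46 assembly factors these counts were 6 and 1, and 34 lay above 0. Of the 26 genes, 1 passed: Fastkd2, an RNA-binding protein needed for mitochondrial ribosome assembly. In WT cells it averaged 59.9 ± 18.6 CPM (LIF/2i; SD, n = 3) and 109 ± 0.130 CPM (LIF; SD, n = 2), against 143 ± 34.8 and 144 ± 18.7 CPM in KI cells (SD, n = 3 each). It was higher in KI than WT in LIF/2i (1.24 ± 0.23, adjusted p = 0.0202), where 0.974% of all genes were called higher. It also rose from LIF/2i to LIF in WT (0.85 ± 0.25, adjusted p = 0.0443), where 6.31% of all genes were called higher. The first call ended without replicate 1 of WT LIF/2i (adjusted p = 0.0728), without replicate 3 of KI LIF/2i (0.0709) and with only the groups compared fitted (0.0736), and the second in 8 of 24 alternatives, those without WT LIF/2i replicate 1 or 3, WT LIF replicate 2, the agreeing pair, KI LIF/2i replicate 2 or any KI LIF replicate (adjusted p up to 0.18). Of 8 tested regulators, Myc alone passed, in a change of medium where 6.31% (WT) and 4.05% (KI) of all genes were called higher. It was higher in LIF than in LIF/2i in WT (2.98 ± 0.46, adjusted p = 0.0023) and in KI cells (1.96 ± 0.39, adjusted p = 0.0103). Without KI LIF replicate 3 the KI value was 1.73 (adjusted p = 0.0539). Neither of the 2 tested genes of the last list passed.

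Promoters of the nuclear members were read in RefSeq sequence of GRCm38.p6, from 250 bases before to 50 after the first listed start. Of the 86 members, 69 matched by symbol or a listed synonym. In 61 of these 69, the last 30 bases lay inside an annotated transcript of the gene. Binding motifs of regulators known for these genes were searched on both strands. A promoter was counted under each motif that it held. The NRF1 core GCATGCGC was present in 14.5% of the member promoters and 2.8% of all 27025 promoters, the ETS motif CCGGAAG (read by GABPA) in 23.2 and 9.12%, the YY1 motif AAGATGGC in 13 and 2.88% and the ERR motif TNAAGGTCA in 4.35 and 1.26%. The 27025 promoters were not limited to genes tested here. YY1 matches among members lay in complexes I and V, in 7 and 2 promoters. The 250 bases before the start are printed for Cox5a and Cox7a1, the members called in KI cells with the largest changes, and for Uqcrh, with the smallest p in the test of genotype by medium. Capitals mark a match to any of the 4 motifs.
Cox5a, chr9:57520982-57521231, plus strand: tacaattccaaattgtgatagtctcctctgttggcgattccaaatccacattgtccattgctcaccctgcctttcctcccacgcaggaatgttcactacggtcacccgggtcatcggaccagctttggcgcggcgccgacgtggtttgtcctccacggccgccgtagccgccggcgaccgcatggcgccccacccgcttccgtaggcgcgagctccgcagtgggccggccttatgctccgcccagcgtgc
Cox7a1, chr7:30183921-30184170, plus strand: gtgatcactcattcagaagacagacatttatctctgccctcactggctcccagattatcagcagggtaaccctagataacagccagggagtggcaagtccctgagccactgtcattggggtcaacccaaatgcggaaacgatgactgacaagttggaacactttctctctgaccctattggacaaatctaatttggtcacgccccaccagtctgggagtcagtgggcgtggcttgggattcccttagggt
Uqcrh, chr4:116075071-116075320, minus strand: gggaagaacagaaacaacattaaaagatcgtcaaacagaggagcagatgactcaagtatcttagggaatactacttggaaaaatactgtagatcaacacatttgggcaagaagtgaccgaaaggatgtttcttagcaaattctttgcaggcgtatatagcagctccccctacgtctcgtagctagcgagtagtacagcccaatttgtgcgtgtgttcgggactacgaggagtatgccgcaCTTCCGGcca
Only the Uqcrh window held a match, an ETS motif of 7 bases close to the start. A match describes letters, not binding, and its absence here says only that these letters are not in this window.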

How the data were processed

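Counts were deposited by the authors as 1 table of raw counts per gene, not normalized, over the coding sequence of 1 transcript per gene, per the file headers. The tools UMI-tools 1.0.1, cutadapt 3.4 and Bowtie 1.3.0 appear in the submitters' processing notes, with no role. For the build, annotation, strand and multiply matching reads, nothing is given in the sources used here. Transcripts were matched to GENCODE M21 (GRCm38; all 99 members found).

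Genes passing filterByExpr (minimum count 10) were fitted in R 4.3.3 with edgeR 4.0.16 after TMM scaling, whose factors ran from 0.945 to 1.04 (robust quasi-likelihood F test, two-sided, 1 mean per group over 11 samples, biological coefficient of variation 0.234). P-values were Benjamini-Hochberg adjusted over 13239 genes, with a threshold of 0.05. SEs came from the F statistic. The fit was tested on simulated counts. CPM are TMM-scaled, except Y-linked sums. Alternatives used DESeq2 1.42.0, limma 3.58.1 (voom), other scalings, filters and sample sets.

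Members and lists were chosen with earlier results of these data known. Named genes were those past the threshold, up to 4 per direction and comparison with the largest change among those averaging 5 CPM or more whose groups did not overlap, the mitochondrially encoded genes, isoform pairs and a panel. Ndufa5, Uqcr11 and Ndufs3 fall outside this rule and were chosen after their values were seen.

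Replicate numbers recur in all groups. Same-numbered KI samples deviated together from their group means across media (correlations 0.500, 0.373 and 0.220). Replicate 2 of one medium with replicate 3 of the other gave 0.214 and 0.081. Replicate 1 thus stood apart from replicates 2 and 3 in KI cells, and a pairing of replicates 2 and 3 by number is not shown. No label states a pairing, and the main fit used none. In the other comparisons at least 1 same-numbered correlation lay under 0.1.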

Additional observations from a re-analysis of the deposited data

Results flagged for a closer look

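The KI to WT difference of 2 members pointed in opposite directions in the 2 media, with every KI sample above every WT sample in LIF/2i and below every WT sample in LIF. For Uqcrh the difference was 0.74 in LIF/2i and -0.27 in LIF, and the test of the change between media gave -1.01 on the log2 scale with an edgeR adjusted p of 0.708 (0.314 to 1 over the alternatives). For Ndufb4, an accessory subunit of complex I with 100% of its 30-base words shared with other genes, the values were 0.43, -0.42 and -0.85 with an adjusted p of 0.818. Neither passed the test. The same pattern was not counted over all genes tested, so the count of 2 is not read as a trait of the members. The WT LIF group had n = 2, and groups of 2 and 3 samples were not examined for single samples far from the rest.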

How the results depend on the processing

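The 43 gene results recomputed, each a gene in a comparison, kept their direction in every alternative run. Most had been chosen for passing the threshold or for groups that did not overlap. Leaving out a library could then hardly turn their direction, so this is no separate support. Cox5a in KI cells kept its call in all 24 alternatives. Medians of the mitochondrially encoded genes changed sign in 2 comparisons: without KI LIF/2i replicate 3 they went from 0.281 to -0.210 for KI against WT in LIF/2i and from -0.238 to 0.201 between media in KI. The nuclear medians that changed sign were those of WT between media (0.044, with -0.049 without WT LIF/2i replicate 3, -0.003 without WT LIF replicate 2 and -0.017 over members under 10% shared) and of KI against WT in LIF, given below. Counts of called members moved with the setting, and so did the share of all genes called, given in parentheses. In LIF/2i, KI against WT gave 0 members higher as reported (0.974%), 2 with DESeq2 (3.06%) and 1 with the 12 libraries counted separately (1.84%). The 1 member lower (1.25%) became 0 with only the groups compared fitted (0.292%). Leaving out 1 library gave 0 to 1 higher and 0 to 2 lower, and leaving out KI replicate 1 in both media 2 higher (5.25%) and 4 lower (6.7%). In LIF, KI against WT gave 0 lower as reported (0.128%) and 2 without KI replicate 1 in both media (1.88%). Its nuclear median ranged from -0.043 to 0.040 with 1 library left out and was -0.042 without KI replicate 1 in both media.

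From LIF/2i to LIF in WT, the 0 members higher (6.31%) became 2 with DESeq2 (7.7%) and 2 with library totals alone (7.24%). They became 4 with only the groups compared (7.64%): mt-Cytb, mt-Nd2, mt-Atp8 and Uqcrh. With the 12 libraries separate there were 3 (9.56%), and with the replicate block 3 (10.2%). The 1 lower (6.69%) became 2 with DESeq2 (9.01%), 2 with only the groups compared (9.12%), 4 with the 12 libraries separate (11.5%), 3 with the replicate block (11.9%) and 2 without KI replicate 1 in both media (10.3%). Leaving out 1 library gave 0 to 3 higher and 0 to 2 lower. The mitochondrially encoded median was 0.717 with members of at most 90% shared words. In KI, the 4 lower (5.01%) became 2 with limma-voom (3.7%), 2 with library totals alone (4.08%), 2 with no filter (3.72%), 1 with only the groups compared (3.26%), 1 without KI replicate 1 in both media (4.01%), and 1 to 5 with 1 library left out. They became 5 with DESeq2 (6.46%) and 5 with the 12 libraries separate (5.94%), where mt-Co1 was called too (-0.72, adjusted p = 0.0281, and -0.73, adjusted p = 0.0472). The replicate block gave 4 (6.1%). The nuclear median was -0.025 with library totals alone. For the change of the genotype difference with medium, leaving out 1 library moved the nuclear median from -0.242 to -0.056 and the mitochondrially encoded median from -1.144 to -0.142. With members under 10% shared the nuclear median was -0.060. The cause was not tested. The replicate block changed no call of a named gene other than Ndufv3 (-0.51), Sdhd (-0.45), Cox4i1 (0.39) and Uqcrh (0.67) from LIF/2i to LIF in WT, which passed under it and likewise with the same 12 libraries and no block (adjusted p = 0.0182, 0.0344, 0.0257 and 0.0226).

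Limits were the 2 or 3 samples a group, library totals down to 2307219 counts, and shared sequence: only annotated transcripts were searched, and other nuclear copies were not read.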

Other observations

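WT LIF/2i replicate 3 held the highest level of both isoforms known to be raised by low oxygen. Ndufa4l2 had 1.58, 1.07 and 7.60 CPM in WT LIF/2i replicates 1 to 3, and 0 to 0.948 CPM in the other 8 samples. Cox4i2 had 0.790, 0.267 and 2.74 CPM in the same replicates and 0.168 to 1.69 CPM elsewhere. In this library 3 counts equalled 0.927 CPM, so the Cox4i2 value is within a few times that of 3 counts. A list of 10 hypoxia and glycolysis genes summed to 708, 444 and 1252 CPM in these replicates and to 286 to 747 CPM in the other samples, so the same library was highest. This was seen in the data and its cause was not tested.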
